A study of Mus musculus with 12 samples.

Results

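The Hox genes were followed in mouse mammary organoids across a dose series of CHIR99021, a small molecule that inhibits the kinase GSK3 and so activates WNT signalling through β-catenin. The members were the rows of the deposited count table whose gene symbol is Hox, a cluster letter from a to d and a number, which are 32 of 25210 rows. They comprise 11 genes of the Hoxa, 8 of the Hoxb, 8 of the Hoxc and 5 of the Hoxd cluster. GENCODE release M21 lists 39 genes named in this way, and the other 7 were not analysed here. The organoids were grown in growth-factor reduced Matrigel and minimal medium from virgin FVB/N females aged 8 to 11 weeks, with no engineered allele named in the labels. There were 4 groups, which received the vehicle DMSO or CHIR99021 at 1, 1.5 or 3 µM for 7 days. Each group held 3 cultures, and cultures 1, 2 and 3 each came from an individual animal and received all 4 treatments, giving 12 libraries of polyadenylated RNA.

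Hox genes encode homeodomain transcription factors that assign position along the body axis of the embryo. In mammals they lie in clusters on separate chromosomes, and the order of the genes in a cluster matches the order in which they act, with low paralog numbers used towards the head and high numbers towards the tail. Genes with the same number in different clusters are paralogs, and many bind DNA together with cofactors of the Pbx and Meis families. Many Hox genes stay active in adult tissues, where fibroblasts keep a Hox pattern that reflects where in the body they came from. In the mammary gland, loss of the group 9 paralogs Hoxa9, Hoxb9 and Hoxd9 together in mice impairs growth of the gland around pregnancy, and Hoxc6 and Hoxc8 have been studied in its early development.

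The clusters of the deposited table lie on chromosome 6 (Hoxa), chromosome 11 from 96271457 to 96354012 (Hoxb), chromosome 15 from 102921103 to 103036852 (Hoxc) and chromosome 2 from 74691924 to 74748442 (Hoxd) of GRCm38. RefSeq promoter entries (GRCm38.p6) matched 17 members with 18 promoters, since Hoxa10 has a pair of listed starts. The 250 bases before each start were searched on both strands for CTTTGA, the core of the site bound by TCF/LEF factors, which act at the end of the WNT pathway. The core was present in 2 of the 18 member promoters, against 13.8% of 32851 promoters of all genes, and both promoters held it in 2 places. The other searches were for TGATTNAT, the composite Hox-Pbx site, found in 1 member promoter (Hoxa2) against 2.82% of all promoters, and for TATAAA, the TATA box, found in 3 member promoters (Hoxa10, Hoxb8 and Hoxd4) against 12.4%. Member promoters held a median of 12.5 CpG dinucleotides and 56.4% GC, and all promoters held 6 and 52.4%. Printed here, 5′ to 3′ on the strand of the gene, are the promoters with the TCF/LEF core, followed by that of Hoxb4, the tested member with the smallest change at 3 µM, with none of the motifs. Capitals mark CTTTGA and, in Hoxa10, also TATAAA on the opposite strand, and the motifs do not overlap each other. A match describes letters only and says nothing of binding in these cells.
Hoxa10, chr6:52234940-52235189, minus strand: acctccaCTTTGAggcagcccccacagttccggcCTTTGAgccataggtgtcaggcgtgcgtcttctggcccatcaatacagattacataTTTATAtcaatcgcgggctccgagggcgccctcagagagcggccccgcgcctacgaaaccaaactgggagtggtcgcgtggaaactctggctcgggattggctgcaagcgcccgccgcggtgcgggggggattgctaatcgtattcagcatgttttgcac
Hoxd8, chr2:74704365-74704614, plus strand: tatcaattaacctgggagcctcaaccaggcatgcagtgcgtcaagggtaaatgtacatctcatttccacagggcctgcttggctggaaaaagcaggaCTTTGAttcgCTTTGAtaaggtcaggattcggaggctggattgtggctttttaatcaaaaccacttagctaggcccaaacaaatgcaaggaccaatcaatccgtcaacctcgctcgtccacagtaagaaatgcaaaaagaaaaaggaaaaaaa
Hoxb4, chr11:96318017-96318266, plus strand: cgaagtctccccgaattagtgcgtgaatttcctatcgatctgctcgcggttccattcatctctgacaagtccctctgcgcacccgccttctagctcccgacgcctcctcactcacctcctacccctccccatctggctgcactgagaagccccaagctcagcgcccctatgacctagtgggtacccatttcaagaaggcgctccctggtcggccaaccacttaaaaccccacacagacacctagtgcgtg

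Library totals ran from 10.1 M counts (DMSO culture 2) to 24.5 M counts, with M standing for 1e6. Levels are given in CPM, the counts of a gene per M counts of its library, after scaling of the library sizes, so a level of 1 CPM rests on few reads. The epithelial markers Epcam, Cdh1, Krt8, Krt18, Krt5 and Krt14 were present in all 12 libraries, with a sum of 3269 to 5640 CPM in DMSO and 16283 to 33005 CPM at 3 µM. At 3 µM Krt5 and Krt14, keratins of basal cells, rose and Krt8 and Krt18, keratins of luminal cells, fell. Mean Krt5 and Krt14 went from 805 and 1091 CPM in DMSO to 8633 and 15636 CPM at 3 µM. Both basal keratins carried the rise of the sum, while mean Epcam and Cdh1 went from 466 and 462 CPM to 604 and 612 CPM. RNA of other cell types was present as well. The sum of 8 fibroblast markers was 1564, 7194 and 20245 CPM in DMSO cultures 1, 2 and 3, so this content differed widely between animals.

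Summed Hox RNA was lower at each higher dose in each of the 3 cultures. The summed level of the 32 members was 71.1, 156.1 and 123.2 CPM in DMSO (cultures 1, 2 and 3, in this order here and below), 45.6, 80.7 and 89.1 CPM at 1 µM, 23.6, 34.3 and 54.0 CPM at 1.5 µM, and 17.6, 28.0 and 34.0 CPM at 3 µM. The libraries at 1.5 and 3 µM all lay below every DMSO library, and those at 1 µM overlapped with DMSO. Relative to the DMSO library of the same animal, the sum at 3 µM was 24.8, 18.0 and 27.6%. The sums were also taken by cluster. The Hoxa sum at 3 µM was 4.598, 5.59 and 18.9% of its own DMSO level, the Hoxd sum 15.7, 10.2 and 19.6%, the Hoxc sum 28.6, 19.6 and 22.4%, and the Hoxb sum 37.2, 32.0 and 43.5%. The Hoxc sum at 3 µM rested largely on Hoxc13 in cultures 1 and 2. Without this gene, left out after its values were seen, the Hoxc sum was 7.90, 6.00 and 21.2% of its own DMSO level, and the sum of the remaining 31 members was 16.7, 12.4 and 27.2%. In each culture the Hoxb cluster kept the highest percentage, with or without Hoxc13 in the Hoxc sum, and the differences between clusters were not tested.

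**Figure D1:**
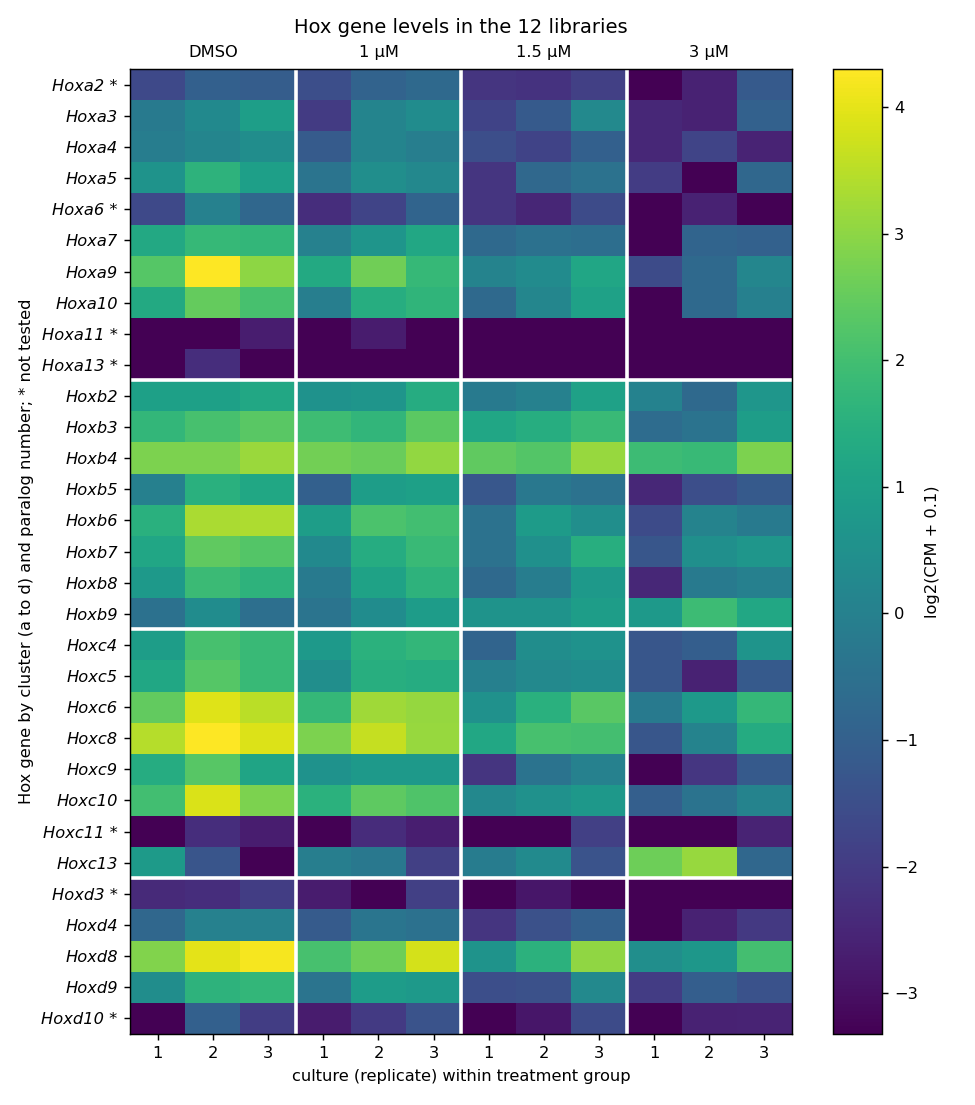
Heat map of log2(CPM + 0.1) for 31 of the Hox genes (rows, by cluster and paralog number, with an asterisk for genes that were not tested) in the 12 libraries (columns, by treatment and culture). Most rows darken from DMSO to 3 µM, whereas Hoxb9 and Hoxc13 brighten and Hoxb4 keeps a level of 3.40 to 6.90 CPM at 3 µM.

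Each gene was tested by edgeR's quasi-likelihood test on the whole count table, with p adjusted by Benjamini and Hochberg over 15316 genes and called under 0.05. Of the 32 members, 25 passed the filter on low counts and 7 did not. At 3 µM against DMSO, 21 members were called lower and 1 higher (Hoxb9), 3 were not called (Hoxb2, Hoxb4 and Hoxc13), and 7 were not tested. Over all genes tested, 57.5% were called, 27.7% lower and 29.9% higher. The median log2 change of the tested members was −3.02, and that of all genes was −0.03. By cluster, 7 of 7 tested Hoxa genes, 5 of 8 Hoxb genes, 6 of 7 Hoxc genes and 3 of 3 Hoxd genes were lower, with medians of −3.08, −1.99, −3.57 and −3.11. By position, 6 of 8 tested genes of paralogs 1 to 4, 10 of 10 of paralogs 5 to 8 and 5 of 7 of paralogs 9 to 13 were lower, with medians of −2.07, −3.13 and −3.11. The 3 µM libraries all lay below all DMSO libraries in 22 of the 25 tested members, as in 29.9% of all genes, and all above in 1, as in 30.9%. The filter needs about 10 counts in 3 libraries. Hoxa4, Hoxd4 and 1 other member reached it in fewer than 3 treated libraries and so passed only with help from DMSO, where they are high, while the remaining 22 tested members reached it in at least 3 treated libraries. The counts of lower genes given above for Hoxa and Hoxd include such members. In a model with the animal as a block, which uses the pairing of the cultures, 23 members were lower and 2 higher at 3 µM among 68.9% of all genes called (34.8% lower, 34.1% higher), and Hoxb2, Hoxb4 and Hoxc13 were then called as well.

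**Figure D2:**
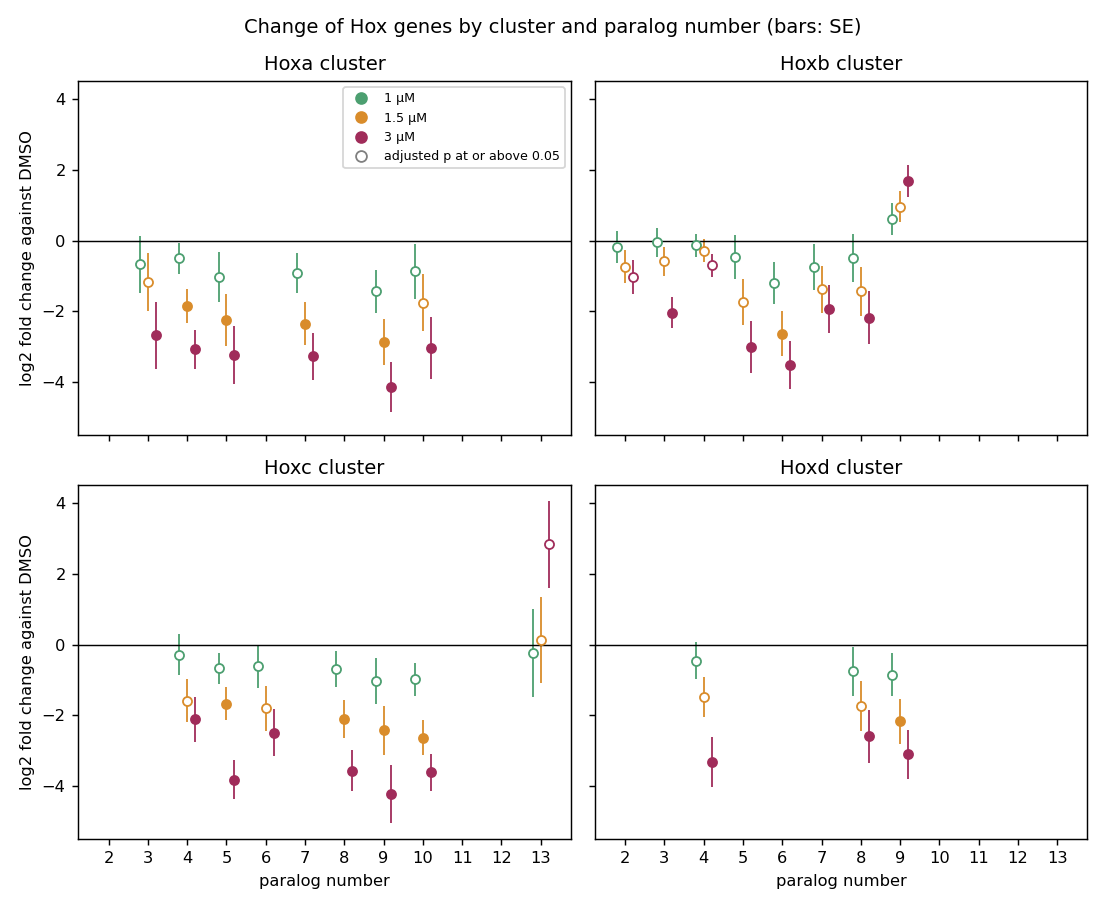
Log2 fold change against DMSO (vertical axis, points, with SE as bars) of tested Hox genes by paralog number (horizontal axis), one panel per cluster, at 1, 1.5 and 3 µM. Filled points have an adjusted p under 0.05. At 3 µM the points lie between −4.22 (Hoxc9) and −0.70 (Hoxb4) except Hoxb9 at 1.68 and Hoxc13 at 2.84.

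The Hoxa genes tested all fell at 3 µM. Hoxa9, a posterior gene that with its paralogs serves mammary growth and that is also known from blood progenitors, had the highest level per transcript length of the cluster, at 1.93 ± 1.40 CPM per kb in DMSO (SD, n = 3). Hoxa9 stood at 4.75, 19.6 and 7.97 CPM in DMSO, at 2.39, 6.14 and 3.35 CPM at 1 µM, at 0.955, 1.19 and 2.20 CPM at 1.5 µM and at 0.235, 0.513 and 1.04 CPM at 3 µM. Every library at 1.5 and 3 µM lay below the lowest DMSO library, and the log2 change at 3 µM was −4.14 ± 0.71 (SE, adjusted p = 0.000739), a 17.6-fold fall. Its neighbour Hoxa10, which patterns the uterus and the lumbar axis, followed with 1 empty library. In DMSO Hoxa10 measured 2.36, 5.59 and 4.09 CPM, followed by 0.863, 2.58 and 3.07 CPM at 1 µM, 0.509, 1.04 and 1.97 CPM at 1.5 µM and 0, 0.513 and 0.897 CPM at 3 µM. Its log2 change was −3.04 ± 0.88 (SE, adjusted p = 0.0136). Hoxa7, a thoracic gene, had no read in culture 1 at 3 µM. The Hoxa7 values were 2.31, 3.35 and 3.18 CPM in DMSO, 0.914, 1.46 and 2.27 CPM at 1 µM, 0.509, 0.615 and 0.579 CPM at 1.5 µM and 0, 0.449 and 0.414 CPM at 3 µM. The change of Hoxa7 was −3.28 ± 0.67 (SE, adjusted p = 0.00201), with all treated libraries below DMSO at each dose. Hoxa5 acts in the lung and in the cervical spine and has been studied in breast epithelium. Hoxa5 stood at 1.42, 2.94 and 1.89 CPM in DMSO, at 0.660, 1.27 and 1.08 CPM at 1 µM, at 0.127, 0.499 and 0.637 CPM at 1.5 µM and at 0.157, 0 and 0.483 CPM at 3 µM. All treated libraries again lay below DMSO, and the change was −3.24 ± 0.83 (SE, adjusted p = 0.00700).

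Hoxa3 and Hoxa4 stand towards the anterior end of the cluster's order and were also called lower at 3 µM. In DMSO Hoxa4 measured 0.844, 1.02 and 1.24 CPM, followed by 0.355, 0.975 and 0.852 CPM at 1 µM, 0.255, 0.192 and 0.406 CPM at 1.5 µM and 0.0784, 0.193 and 0.0690 CPM at 3 µM. Hoxa4, which patterns neck vertebrae, was below DMSO in all libraries at 1.5 and 3 µM and changed by −3.08 ± 0.56 (SE, adjusted p = 0.000988). It was over the filter on low counts in 3 DMSO and 2 treated libraries. Hoxa4 was thus tested only with help from DMSO, where it is high, which limits its calls. The Hoxa3 values were 0.755, 1.12 and 1.83 CPM in DMSO, 0.152, 0.975 and 1.19 CPM at 1 µM, 0.191, 0.346 and 1.101 CPM at 1.5 µM and 0.0784, 0.0642 and 0.414 CPM at 3 µM. For Hoxa3, which forms pharyngeal organs, only the 3 µM libraries were separate from DMSO, and the change was −2.68 ± 0.95 (SE, adjusted p = 0.0332). Hoxa3 lost its call without DMSO culture 2 or 3 or without culture 1 or 2 at 3 µM, with an adjusted p of up to 0.108. Those fits did not use the pairing by animal, and with the animal as a block and all libraries the adjusted p was 0.00155. By the exons of GENCODE M21, 25.4% of Hoxa3, 20.4% of Hoxa7 and 16.0% of Hoxa4 exon bases also belong to genes on the opposite strand, and the strand setting used for counting is not given in the sources used here, so reads there cannot be assigned to a strand. Hoxa2, Hoxa6, Hoxa11 and Hoxa13 were not tested. Hoxa6 had 23 counts over the DMSO libraries and 1 over the 3 µM libraries, 19.3-fold lower after scaling with a 95% exact interval from 3.14 to 797-fold that covers counting error only. Hoxa2 had 5, 4 and 7 counts in DMSO and 0, 1 and 5 at 3 µM, and Hoxa11 and Hoxa13 had at most 1 count in any library, which is at or under the floor of 3 counts.

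The Hoxb cluster held 2 of the 3 tested members that were not called at 3 µM. Hoxb4, known for expanding blood stem cells when overexpressed, had the smallest change of the tested members at this dose. In DMSO Hoxb4 measured 6.84, 6.91 and 8.78 CPM, followed by 6.35, 5.80 and 8.35 CPM at 1 µM, 5.28, 4.69 and 8.57 CPM at 1.5 µM and 3.61, 3.40 and 6.90 CPM at 3 µM. The groups overlapped at every dose, although each culture was lower at 3 µM than in its own DMSO library. The log2 change at 3 µM was −0.70 ± 0.33 (SE, adjusted p = 0.0904), and with the animal as a block −0.74 with an adjusted p of 0.00347. Without culture 3 at 3 µM the change was −1.12 and the adjusted p 0.00972. It made up 7.06 ± 2.60% of the summed Hox level in DMSO and 17.6 ± 4.77% at 3 µM (SD, n = 3). Hoxb2, a hindbrain gene with the lowest paralog number of the Hoxb members, had 1.91, 1.93 and 2.26 CPM in DMSO and 0.941, 0.513 and 1.52 CPM at 3 µM. Its 3 µM libraries lay below DMSO, with a log2 change of −1.04 ± 0.47 (SE, adjusted p = 0.0836) and an adjusted p of 0.00962 with the block. Of its exon bases 27.3% are shared with Hoxb3os on the opposite strand, so reads there cannot be assigned to a strand. Hoxb3, between Hoxb2 and Hoxb4, was called at the top dose only. The Hoxb3 values were 3.20, 4.16 and 5.01 CPM in DMSO, 3.71, 3.12 and 5.11 CPM at 1 µM, 2.16, 2.57 and 3.48 CPM at 1.5 µM and 0.549, 0.642 and 1.79 CPM at 3 µM. Its change at 3 µM was −2.04 ± 0.44 (SE, adjusted p = 0.00291), and 52.9% of its exon bases are shared with the antisense gene Hoxb3os (named after its values were seen), which itself changed by −1.66 ± 0.36 (SE, adjusted p = 0.00307).

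The members from Hoxb5 to Hoxb8 were all called lower at 3 µM. Hoxb6 had the highest level per length in the cluster, 3.92 ± 2.18 CPM per kb in DMSO (SD, n = 3). Hoxb6 stood at 2.75, 10.1 and 10.3 CPM in DMSO, at 1.78, 4.29 and 3.86 CPM at 1 µM, at 0.637, 1.73 and 1.27 CPM at 1.5 µM and at 0.235, 0.963 and 0.759 CPM at 3 µM. It was separate from DMSO at 1.5 and 3 µM and changed by −3.52 ± 0.67 (SE, adjusted p = 0.00140), an 11.5-fold fall. Hoxb5 is expressed in developing vessels and gut nerves. In DMSO Hoxb5 measured 0.889, 2.74 and 2.21 CPM, followed by 0.406, 1.80 and 1.93 CPM at 1 µM, 0.318, 0.730 and 0.637 CPM at 1.5 µM and 0.0784, 0.257 and 0.345 CPM at 3 µM. This gene was separate at the same doses and changed by −3.02 ± 0.73 (SE, adjusted p = 0.00545). Hoxb7, long studied in breast cancer cells, was lowest in culture 1 at every dose. The Hoxb7 values were 2.18, 5.28 and 4.69 CPM in DMSO, 1.12, 2.53 and 3.52 CPM at 1 µM, 0.637, 1.31 and 2.67 CPM at 1.5 µM and 0.314, 1.28 and 1.52 CPM at 3 µM. The change of Hoxb7 was −1.93 ± 0.68 (SE, adjusted p = 0.0328). Hoxb8, a gene of myeloid cells and of the spinal cord, had 1 count in culture 1 at 3 µM. Hoxb8 stood at 1.64, 3.55 and 2.96 CPM in DMSO, at 0.762, 1.998 and 2.95 CPM at 1 µM, at 0.509, 0.845 and 1.62 CPM at 1.5 µM and at 0.0784, 0.770 and 0.897 CPM at 3 µM. The change of Hoxb8 was −2.18 ± 0.74 (SE, adjusted p = 0.0277). Both Hoxb7 and Hoxb8 lost their calls without DMSO culture 2 or 3 or without culture 1 or 2 at 3 µM, with adjusted p of up to 0.0880 and 0.0716. Those fits did not use the pairing by animal. With the animal as a block and all libraries the adjusted p were 0.000229 and 0.000612.

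Hoxb9, the Hoxb gene with the highest paralog number analysed here and a member of the mammary group 9 paralogs, rose. The Hoxb9 values were 0.622, 1.22 and 0.592 CPM in DMSO, 0.660, 1.22 and 1.76 CPM at 1 µM, 1.40, 1.42 and 1.80 CPM at 1.5 µM and 1.65, 3.66 and 2.28 CPM at 3 µM. All libraries at 1.5 and 3 µM lay above all DMSO libraries. The log2 change was 0.62 ± 0.45 (SE, adjusted p = 0.661) at 1 µM, 0.96 ± 0.45 (SE, adjusted p = 0.138) at 1.5 µM and 1.68 ± 0.45 (SE, adjusted p = 0.00943) at 3 µM, where it was called and 3.21-fold higher. Without single libraries the 3 µM change ran from 1.29 to 2.03 and stayed called, with an adjusted p of up to 0.0466 without culture 2 at 3 µM. Without culture 2 in all groups the change was 1.68 and the adjusted p 0.0696, so the call was lost. Its paralogs Hoxa9, Hoxc9 and Hoxd9 and its neighbour Hoxb8 fell, so the group 9 genes and these neighbours held genes called in both directions. Hoxb9 made up 0.712 ± 0.206% of the summed Hox level in DMSO and 9.69 ± 3.18% at 3 µM (SD, n = 3). The counts behind it were 14, 12 and 11 in DMSO and 21, 57 and 33 at 3 µM, and no other gene of the annotation shares its exons.

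The Hoxc cluster had the highest mean summed level in DMSO, 44.6 ± 17.6 CPM (SD, n = 3), and 6 of its 7 tested members were called lower at 3 µM. Hoxc8, which patterns the thoracic skeleton and marks early mammary tissue, had the highest level per length of all members in DMSO, 5.32 ± 1.52 CPM per kb (SD, n = 3). Hoxc8 stood at 10.9, 19.5 and 14.8 CPM in DMSO, at 6.91, 12.3 and 8.58 CPM at 1 µM, at 2.29, 4.11 and 3.94 CPM at 1.5 µM and at 0.314, 0.963 and 2.48 CPM at 3 µM. Levels overlapped with DMSO at 1 µM and were below it at 1.5 and 3 µM, and the change at 3 µM was −3.57 ± 0.58 (SE, adjusted p = 0.000558). Hoxc6, another gene of the developing mammary gland, came next per length in DMSO after Hoxc8 and Hoxd8. In DMSO Hoxc6 measured 5.47, 15.2 and 11.4 CPM, followed by 3.30, 9.16 and 8.41 CPM at 1 µM, 1.34, 2.77 and 5.04 CPM at 1.5 µM and 0.784, 1.60 and 3.24 CPM at 3 µM. Its change was −2.49 ± 0.66 (SE, adjusted p = 0.00892). Hoxc10, which acts in the lumbar cord and hindlimb, followed closely in level per length, at 4.38 ± 2.85 CPM per kb against 4.44 ± 2.04 for Hoxc6, a difference far within their spread. The Hoxc10 values were 3.87, 14.4 and 6.79 CPM in DMSO, 2.84, 5.26 and 4.49 CPM at 1 µM, 1.08, 1.34 and 1.56 CPM at 1.5 µM and 0.392, 0.642 and 0.966 CPM at 3 µM. It changed by −3.61 ± 0.53 (SE, adjusted p = 0.000279). Hoxc9, a thoracic gene that sets motor neuron identity, was among the few members with all 1 µM libraries below DMSO. Hoxc9 stood at 2.53, 4.87 and 2.100 CPM in DMSO, at 1.37, 1.61 and 1.65 CPM at 1 µM, at 0.127, 0.653 and 0.927 CPM at 1.5 µM and at 0, 0.128 and 0.345 CPM at 3 µM. The change of −4.22 ± 0.82 (SE, adjusted p = 0.00153) was the most negative of the tested members, on 7 counts in all at 3 µM. The anterior members followed. In DMSO Hoxc5 measured 2.22, 4.77 and 3.39 CPM, followed by 1.27, 2.63 and 2.56 CPM at 1 µM, 0.891, 1.11 and 1.22 CPM at 1.5 µM and 0.314, 0.0642 and 0.345 CPM at 3 µM. Hoxc5 changed by −3.82 ± 0.55 (SE, adjusted p = 0.000233) and shares 5.37% of its exon bases with Hoxc10 on the same strand, so reads there cannot be told apart by gene. The Hoxc4 values were 1.78, 4.16 and 3.50 CPM in DMSO, 1.62, 2.83 and 3.24 CPM at 1 µM, 0.446, 1.23 and 1.39 CPM at 1.5 µM and 0.314, 0.385 and 1.45 CPM at 3 µM. Hoxc4 changed by −2.11 ± 0.64 (SE, adjusted p = 0.0163), and lost its call without culture 1 or 2 at 3 µM, with an adjusted p of up to 0.0614. Those fits had no animal block, and with the block and all libraries the adjusted p was 0.000711.

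Hoxc13, the most posterior member and a regulator of hair and nail keratin genes, was high in some libraries only. Hoxc13 stood at 1.69, 0.305 and 0 CPM in DMSO, at 0.863, 0.731 and 0.170 CPM at 1 µM, at 0.828, 1.15 and 0.290 CPM at 1.5 µM and at 6.04, 8.66 and 0.483 CPM at 3 µM. At 3 µM cultures 1 and 2 stood at 6.04 and 8.66 CPM and culture 3 at 0.483 CPM, so the group overlapped with DMSO, where culture 1 alone reached 1.69 CPM. The counts were 38, 3 and 0 in DMSO and 77, 135 and 7 at 3 µM. Each culture was higher at 3 µM than in its own DMSO library. At 3 µM Hoxc13 made up 34.2, 30.9 and 1.42% of the summed Hox level. The log2 change was 2.84 ± 1.22 (SE, adjusted p = 0.0701), and with the animal as a block 2.77 with an adjusted p of 0.00330. It moved with single libraries, to 5.35 (adjusted p = 0.0179) without DMSO culture 1, to 3.34 (adjusted p = 0.0284) without culture 3 at 3 µM and to an adjusted p of 0.207 without culture 2 at 3 µM, all by edgeR. Hoxc13 was the member with the highest mean per length at 3 µM, 2.06 ± 1.70 CPM per kb (SD, n = 3), before Hoxb4 with 1.81 ± 0.765 and Hoxb9 with 0.982 ± 0.400, and these values overlap in their spread. Its adjacent member in the table, Hoxc11, had at most 3 counts in any library.

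**Figure D3:**
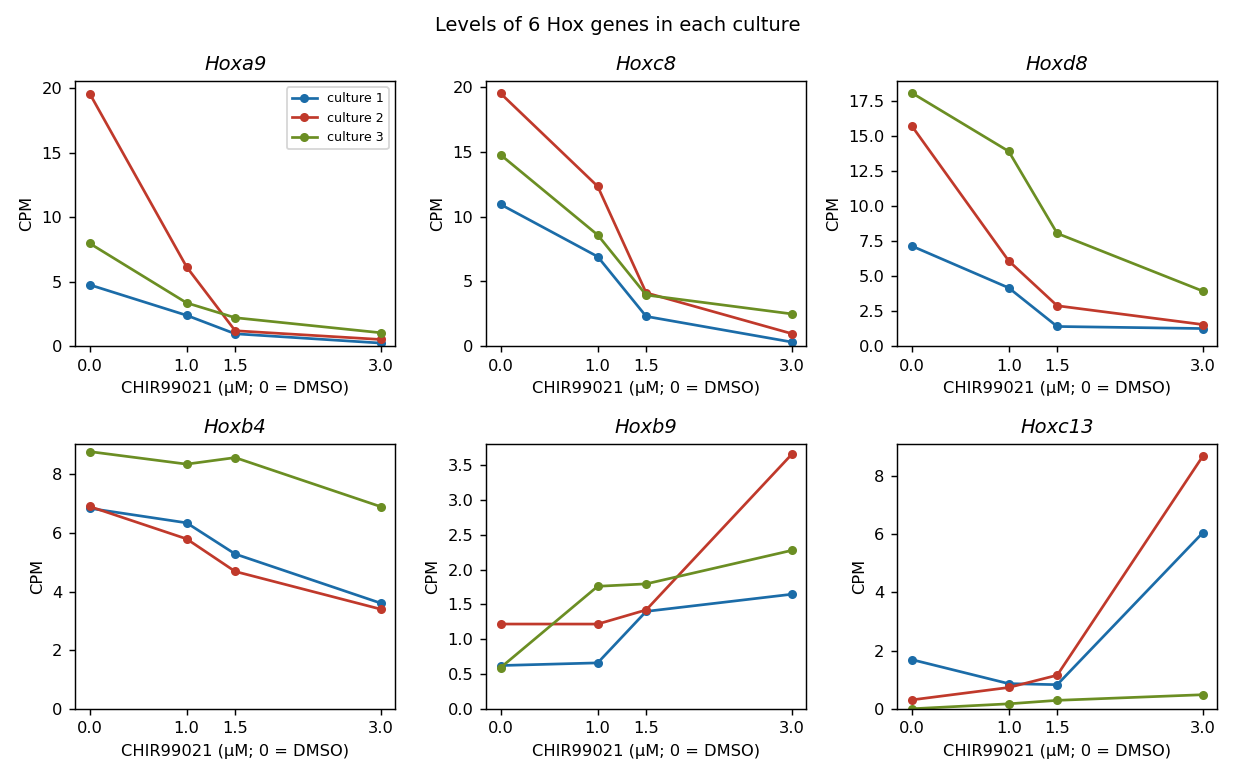
CPM (vertical axis, from 0, own scale per panel) against CHIR99021 dose (horizontal axis) for 6 Hox genes, with one line per culture. Hoxa9, Hoxc8 and Hoxd8 fall in each culture, Hoxb4 stays at 3.40 CPM or more, Hoxb9 is above every DMSO value at 1.5 and 3 µM, and Hoxc13 reaches 6.04 and 8.66 CPM in cultures 1 and 2 and 0.483 CPM in culture 3.

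In the Hoxd cluster Hoxd8, a gene of the trunk and limb, dominated with 4.98 ± 2.10 CPM per kb in DMSO (SD, n = 3). Hoxd8 stood at 7.15, 15.7 and 18.1 CPM in DMSO, at 4.16, 6.09 and 13.9 CPM at 1 µM, at 1.40, 2.88 and 8.05 CPM at 1.5 µM and at 1.25, 1.54 and 3.93 CPM at 3 µM. Only the 3 µM libraries were all below DMSO, as culture 3 was at 8.05 CPM at 1.5 µM. The change at 3 µM was −2.60 ± 0.74 (SE, adjusted p = 0.0128), and the adjusted p became 0.0503 without culture 2 at 3 µM. That fit had no animal block, and with the block and all libraries the adjusted p was 3.60e-05. Hoxd9, the Hoxd member of the mammary group 9, was separate from DMSO at both higher doses. In DMSO Hoxd9 measured 1.24, 2.94 and 3.18 CPM, followed by 0.660, 1.75 and 1.65 CPM at 1 µM, 0.255, 0.269 and 1.101 CPM at 1.5 µM and 0.157, 0.385 and 0.276 CPM at 3 µM. It changed by −3.11 ± 0.71 (SE, adjusted p = 0.00369). Hoxd4 was low throughout. The Hoxd4 values were 0.489, 0.914 and 0.916 CPM in DMSO, 0.355, 0.682 and 0.625 CPM at 1 µM, 0.127, 0.269 and 0.406 CPM at 1.5 µM and 0, 0.0642 and 0.138 CPM at 3 µM. Hoxd4, which acts in the hindbrain and neck, changed by −3.32 ± 0.71 (SE, adjusted p = 0.00254) in the model. Hoxd4 was over the filter on low counts in 2 DMSO and 2 treated libraries. It was thus tested only with help from DMSO, where it is high, which limits this call. Its 3 counts at 3 µM against 37 in DMSO give a 10.4-fold fall with a 95% exact interval from 3.28 to 52.6-fold. Of its exon bases 52.3% are shared with other genes on the same strand, Hoxd3 among them, so reads there cannot be told apart by gene. Hoxd3 had 6 counts over the DMSO libraries and 0 at 3 µM, and Hoxd10, a gene of lumbar motor neurons, had 7 and 2, and neither was tested.

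At 1.5 µM against DMSO, 11 members were called, all lower, among 27.3% of all genes called (11.8% lower). Among these were Hoxa4, Hoxa5, Hoxa7, Hoxa9, Hoxb6, Hoxc5, Hoxc8, Hoxc9, Hoxc10 and Hoxd9. Of the 25 tested members, 14 were not called. The median log2 change of the tested members was −1.74, and that of all genes was −0.00. The most negative changes were −2.88 ± 0.65 (SE, adjusted p = 0.00960) for Hoxa9, −2.63 ± 0.63 (SE, adjusted p = 0.0125) for Hoxb6 and −2.63 ± 0.50 (SE, adjusted p = 0.00406) for Hoxc10. The Hoxb cluster gave 1 call of 8, at a median of −1.06, and Hoxb4 stood at −0.28 ± 0.32 (SE, adjusted p = 0.540). In 17 of 25 tested members the 1.5 µM libraries all lay below DMSO, as in 20.7% of all genes, and in 1 all above, as in 24.9%. With the animal as a block 21 members were lower and 0 higher, among 46.7% of all genes called (24.3% lower). The count depended on single libraries. It was 2 without culture 1 at 1.5 µM, 4 without culture 2 at 1.5 µM, 4 without DMSO culture 2 and 7 without DMSO culture 3. In these fits, in the same order, 16.4, 18.4, 15.7 and 20.7% of all genes were called, so the share of all genes was lower as well. Hoxa9 and Hoxc10 were called whichever of the 12 libraries was left out, and the call of each of the other 9 was lost in at least 1 of those fits. Among these 9, Hoxb6 was called most often, in 11 of the 12 fits, and Hoxa5 least often, in 2.

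At 1 µM no member was called by edgeR, and 1 (Hoxa9) had an unadjusted p under 0.05. DESeq2 called 0 members as well. Of all genes tested, edgeR called 0.242% at this dose and DESeq2 3.42%. The median log2 change of the tested members was −0.68, and that of all genes was −0.005. Of the members, 24 of 25 were negative, the exception being Hoxb9. In 21 of the 25 each culture was lower than its own DMSO library. The shares of all genes for these counts of 24 and 21 were not computed, so no statement on the members rests on them. With the animal as a block Hoxb6 was called (log2 change −1.12, adjusted p = 0.0196), among 5.61% of all genes (3.06% lower). All 1 µM libraries lay below all DMSO libraries in 3 tested members (Hoxa5, Hoxa7 and Hoxc9), as in 8.27% of all genes. Comparisons with DMSO at 1, 1.5 and 3 µM share the DMSO libraries, so their values for a gene are not independent.

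Over the whole dose range, the slope per µM was called in 24 members, 22 falling and 2 rising, among 58.2% of all genes (28.0% falling, 30.2% rising). The steepest falls were −1.45 ± 0.25 (SE, adjusted p = 0.000435) for Hoxc9, −1.43 ± 0.22 (SE, adjusted p = 0.000195) for Hoxa9 and −1.28 ± 0.18 (SE, adjusted p = 0.000113) for Hoxc5, in log2 units per µM. The rising members were Hoxb9, at 0.56 ± 0.13 (SE, adjusted p = 0.00374), and Hoxc13, at 1.03 ± 0.34 (SE, adjusted p = 0.0208). Hoxb4 was the member not called, at −0.24 ± 0.10 (SE, adjusted p = 0.0610). In 14 of the 25 tested members CPM fell at each dose step in every culture, as in 9.68% of all genes. Between 1.5 and 3 µM, 2 members were called, both lower, among 29.7% of all genes (12.7% lower). These were Hoxb3, at −1.45 ± 0.44 (SE, adjusted p = 0.0320), and Hoxc5, at −2.15 ± 0.55 (SE, adjusted p = 0.0153). The call of Hoxb3 was lost without culture 2 or 3 at 1.5 µM or without culture 1 or 2 at 3 µM, with an adjusted p of up to 0.114. The count for this step was 1 in each of those 4 fits and 5 without culture 3 at 3 µM. Over all genes 19.0 to 21.8% were called in the former and 36.2% in the latter. With the animal as a block 7 members were called for this step, 6 lower and 1 higher, among 46.7% of all genes (22.0% lower, 24.7% higher).

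The cultures themselves differed in Hox level. In a model with group and culture, 15 of 25 tested members differed between cultures, among 28.8% of all genes. By cluster these were 2 of 7 in Hoxa, 7 of 8 in Hoxb, with Hoxb9 not called, 4 of 7 in Hoxc and 2 of 3 in Hoxd. Hoxb6 and Hoxd8 gave the lowest adjusted p, 0.00166 and 0.00210. Averaged over the 4 treatments Hoxd8 was at 3.49, 6.56 and 11.0 CPM in cultures 1, 2 and 3. For Hoxb6 these means were 1.35, 4.26 and 4.05 CPM. In DMSO the highest value was in culture 2 for 15 tested members, in culture 3 for 9 and in culture 1 for 1, Hoxc13. A difference in slope between cultures was called by edgeR in 0 of 25 members and 0.00% of all genes, and 0 members had an unadjusted p under 0.05. The count of 15 depended on single libraries. It was 7 without culture 1 at 1 µM, 9 without culture 2 at 1 µM and 8 without culture 3 at 1 µM, and it was 8 without culture 1 and 9 without culture 3 at 1.5 µM.

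Leaving culture 2 out of all groups, an alternative added after the values had been seen, reduced the calls at 3 µM to 6, all lower (Hoxa4, Hoxa9, Hoxb6, Hoxc5, Hoxc8 and Hoxc10), and the calls at 1.5 µM to 0. Over all genes, 31.1% were then called at 3 µM and 2.98% at 1.5 µM. The slope was then called in 13 members, all falling, so neither Hoxb9 nor Hoxc13 was called. Without culture 1 the count at 3 µM was 20 and without culture 3 it was 23. Over all genes 43.2 and 58.1% were called in these fits.

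Markers of other cell types moved with the dose as well. The summed fibroblast markers ran from 1564 to 20245 CPM in DMSO, 1623 to 19206 CPM at 1 µM, 539 to 11474 CPM at 1.5 µM and 169 to 4502 CPM at 3 µM. At 3 µM 1 of 8 fibroblast markers was called lower, and 7 of 8 with the animal as a block. Col1a1, Col1a2 and Col3a1 made up most of the fibroblast sum, with DMSO means of 2253, 2425 and 4260 CPM. The other fibroblast markers had means of at most 294 CPM (Dcn). Dcn fell in cultures 1 and 2 at 3 µM but rose in culture 3, from 625 to 1071 CPM. The sum of 5 endothelial markers was 243 to 503 CPM in DMSO and 27.1 to 86.6 CPM at 3 µM, with 5 of 5 called lower. For macrophage and leukocyte markers, 4 of which are in the table, it was 38.3 to 243 CPM in DMSO and 10.7 to 53.1 CPM at 3 µM, with 3 called lower. The 4 adipocyte markers summed to 2989 to 8054 CPM in DMSO and 36.0 to 227 CPM at 3 µM, with 4 called lower. Each marker of these lists that is in the table had at least 3 counts in some library. As a percentage of the DMSO library of the same culture, at 1 µM the fibroblast sum was 104, 89.5 and 94.9%, and the Hox sum was 64.2, 51.7 and 72.4%. At this dose the endothelial sum was 39.5, 34.7 and 78.8%, the adipocyte sum 51.9, 39.0 and 29.9% and the leukocyte sum 103, 87.6 and 77.5%. At 1.5 µM the fibroblast sum was 34.5, 28.8 and 56.7%, and the Hox sum was 33.1, 22.0 and 43.8%. The endothelial sum was then 16.0, 11.1 and 45.0%, the adipocyte sum 19.9, 14.1 and 4.62% and the leukocyte sum 43.8, 26.0 and 25.3%. At 3 µM these percentages were 10.8, 13.03 and 22.2% for fibroblast markers and 24.8, 18.0 and 27.6% for Hox genes. They were 11.1, 11.8 and 20.8% for endothelial, 2.63, 2.82 and 1.20% for adipocyte and 28.0, 13.8 and 21.8% for leukocyte markers. Across DMSO cultures the Hox sum was highest in culture 2, as were the endothelial sum (243, 503 and 416 CPM) and the adipocyte sum (4542, 8054 and 2989 CPM), whereas the fibroblast and leukocyte sums were highest in culture 3. In DMSO the endothelial sum had the same order of cultures as the Hox sum. At 1, 1.5 and 3 µM the Hox, endothelial, fibroblast and leukocyte sums shared an order, highest in culture 3 and lowest in culture 1. These orders rest on 3 cultures and single out no cell type. The part of these cells in the Hox levels was not tested, and in bulk RNA fewer cells of a type and less RNA per cell cannot be told apart.

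**Figure D4:**
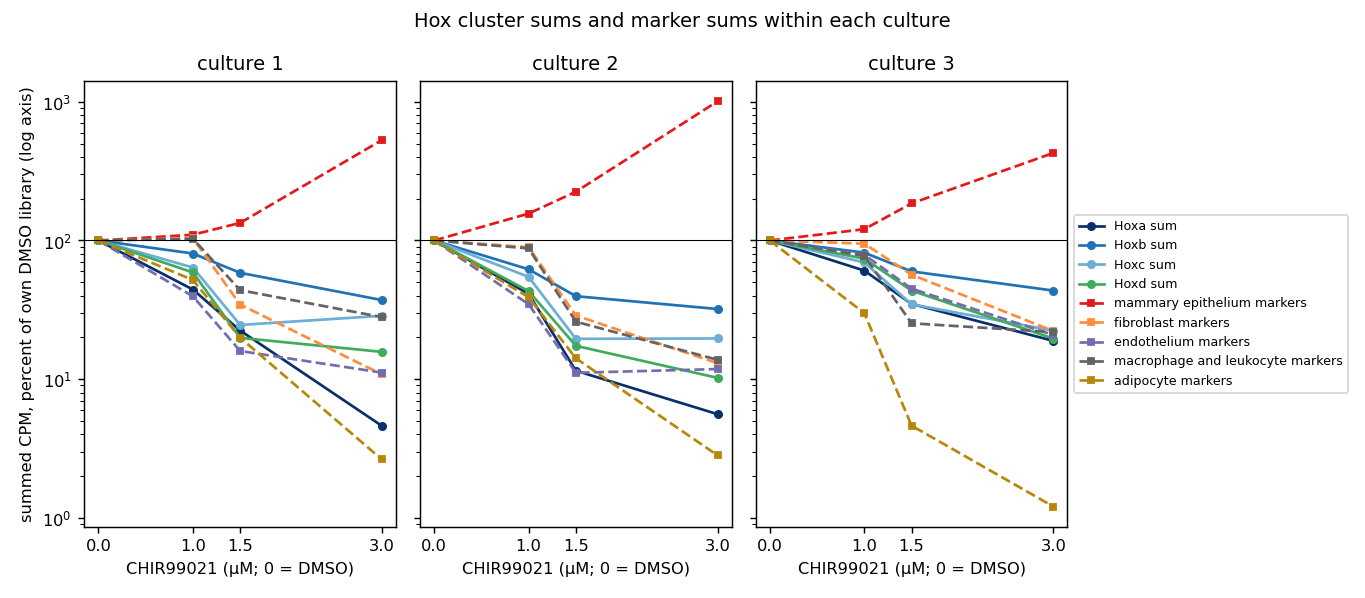
Summed CPM as a percentage of the DMSO library of the same culture (vertical log axis) against CHIR99021 dose (horizontal axis), one panel per culture, for the 4 Hox clusters (solid lines) and 5 marker lists (dashed lines). At 3 µM the Hoxb sum keeps 37.2, 32.0 and 43.5%, the Hoxa sum 4.598, 5.59 and 18.9% and the Hoxc sum, with Hoxc13, 28.6, 19.6 and 22.4%. The fibroblast, endothelial, leukocyte and adipocyte sums also fall. The epithelial sum rises, carried by Krt5 and Krt14.

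Genes that regulate Hox transcription or act with Hox proteins were read from a list of 31, of which 30 are in the table and 27 were tested. This list was drawn up with earlier results of these data known. At 1 µM edgeR called 0 of them, with 0 at an unadjusted p under 0.05. At 3 µM 13 were called, 6 higher and 7 lower, and at 1.5 µM 6 were called, 4 higher and 2 lower. In this fit, without the animal block, both shares of the 27 tested genes are below those of all genes, 57.5% at 3 µM and 27.3% at 1.5 µM. With the animal as a block 19 were called at 3 µM, 9 higher and 10 lower, where 68.9% of all genes were called. Scaling by library size alone shifts the median of all genes at 3 µM to −0.23, and then gave 4 higher and 13 lower. In that fit 57.4% of all genes were called. With the block, and with this scaling, the share of the 27 lay above that of all genes. Without culture 2 in all groups the calls were 4 higher and 3 lower, where 31.1% of all genes were called. Among the 11 Polycomb genes, whose complexes keep Hox clusters silent in cells that do not use them, 3 were called higher and 0 lower, where 29.9% of all genes were called higher. With the animal as a block 4 were higher and 2 lower. Ezh2, the enzyme that methylates histone H3 at lysine 27, was at 32.7, 27.8 and 32.3 CPM in DMSO and 72.5, 82.9 and 57.1 CPM at 3 µM (log2 change 1.19 ± 0.14 SE, adjusted p = 5.96e-05). Its partner Suz12 changed by 0.91 ± 0.12 (SE, adjusted p = 0.000141), and the groups did not overlap in either gene. The retinoic acid receptors, which carry the signal that opens Hox clusters in embryos, were called in both directions. Rara fell from 58.2, 75.7 and 83.6 CPM to 13.3, 19.6 and 31.5 CPM (−1.75 ± 0.32 SE, adjusted p = 0.00106), and Rarb from 1.56, 1.32 and 1.18 CPM to 0.157, 0.385 and 0.621 CPM (−1.77 ± 0.43 SE, adjusted p = 0.00520). Among the cofactors that bind DNA with Hox proteins, 3 fell and 1 rose of 8 tested. Meis3 fell from 14.7, 14.1 and 14.2 CPM to 5.41, 5.84 and 6.21 CPM (−1.30 ± 0.15 SE, adjusted p = 6.82e-05), and Meis2 from 4.53, 9.55 and 9.75 CPM to 1.18, 2.503 and 4.07 CPM (−1.61 ± 0.56 SE, adjusted p = 0.0307). Cdx1 and Cdx4, activators of posterior Hox genes in embryos, stayed at or below 0.290 CPM in every library and were not tested.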

How the data were processed

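The deposited values are whole-number counts of reads per gene in 12 libraries, 1 column per library, and 0 columns were without a sample. Per the submitters' processing notes, the authors' tools included TopHat2 2.1, Bowtie 1.1.0, HTSeq and DESeq2 with the mouse build GRCm38 (mm10). The annotation release and the strand setting of the counting are not given in the sources used here. Deposited counts were analysed in R 4.3.3 with edgeR 4.0.16 (limma 3.58.1): genes were kept by filterByExpr (minimum count 10), libraries were scaled by TMM, and a quasi-likelihood model with a mean per group was fitted to 15316 genes over all 12 libraries. The Benjamini-Hochberg adjustment covers all genes tested, with a threshold of 0.05. The SE of a log2 change is its size divided by the square root of F. Dose slopes, a test between cultures and a test of slope by culture were fitted in the same way.

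Alternatives were a replicate block, DESeq2 1.42.0, other scalings and filters, and leaving out each library. All fits that left out libraries were without the replicate block, so the spread between animals stayed in their error. The labels place cultures 1, 2 and 3 of every group with the same animals. Deviations from the group means correlated at 0.163 to 0.836 in the 18 pairs of libraries with the same number, with a median of 0.51, whereas the 36 pairs of unequal number had a median of −0.21. No pair of replicates agreed within sampling noise. Tested on simulated counts for 3 µM against DMSO with 15316 genes, the model recovered 48% of 2-fold and 82% of 4-fold changes and called 16 unchanged genes. The simulated libraries held no shared effect of the animal, and the changed genes were drawn at random from all tested genes. These rates therefore do not give the recovery for low-count genes such as the Hox members.

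Levels per kb use exon unions of GENCODE M21, and promoters come from RefSeq. The values of 1 member are not reported here, though it is part of the counts, medians and sums. Per-library levels are given for each other member called at 1.5 or 3 µM and the highest per length in each cluster, fold changes for these and for uncalled neighbours or paralogs, and, of the regulators, the 6 called with the largest change. The members and lists were chosen with earlier results of these data known. Count intervals and floors (3 counts) cover counting error only.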

Additional observations from a re-analysis of the deposited data

How the results depend on the processing

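In fits with the animal as a replicate block, the number of Hox genes called was 1 at 1 µM, 21 at 1.5 µM and 7 between 1.5 and 3 µM, each more than 1.5 times the number without it, and Hoxb2, Hoxb4 and Hoxc13 were also called at 3 µM. The shares of all genes called in the first 3 comparisons were 5.61, 46.7 and 46.7% with the block and 0.242, 27.3 and 29.7% without it. A filter of at least 50 counts on average left 8 Hox genes, of which 4 were called at 1.5 µM, 7 at 3 µM, 1 between 1.5 and 3 µM, 8 by slope and 5 between cultures. Of all genes under this filter, 30.6% were called at 1.5 µM, 59.7% at 3 µM and 33.0% between 1.5 and 3 µM. The same filter left 8 calls among the genes inside and beside the clusters. With only the groups compared in the fit, 1 Hox gene was called between 1.5 and 3 µM, among 20.2% of all genes. Leaving out 1 library at a time gave 0 calls at 1 µM in every fit, 2 to 13 at 1.5 µM, 16 to 25 at 3 µM, 1 to 5 between 1.5 and 3 µM, 21 to 25 by slope and 7 to 15 between cultures. Over all genes these fits called 0.0193 to 0.321% at 1 µM and 15.7 to 32.4% at 1.5 µM. They called 48.2 to 59.8% at 3 µM and 19.0 to 36.2% between 1.5 and 3 µM. The same fits gave 9 to 15 regulators and 10 to 14 genes inside and beside the clusters. Leaving culture 1, 2 or 3 out of all groups, chosen after seeing the data, gave 6, 0 and 7 Hox calls at 1.5 µM. Over all genes 9.94, 2.98 and 30.1% were called in these fits. Without culture 2 there were 6 Hox calls at 3 µM, 13 by slope and 7 regulators, and without culture 1 or 2 there were 0 Hox calls between 1.5 and 3 µM and 8 and 4 calls among the genes inside and beside the clusters. Over all genes 31.1% were called at 3 µM without culture 2. Between 1.5 and 3 µM the share of all genes was 7.57% without culture 1 and 2.25% without culture 2. The causes were not tested. The other 135 values of these counts stayed within 1.5 times. Of the values of single genes, 711 kept their direction and side of the threshold, 107 lost a call, 14 gained one and 0 reversed. Depth limits the low members, several of which rest on fewer than 10 counts per library at 3 µM.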

Other observations

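Other genes that lie inside the Hox clusters or within 250000 bases of them were read in the same fits. Inside the clusters 18 other genes are listed, 3 were tested, and all 3 were called lower at 3 µM by edgeR, where 27.7% of all genes were called lower. Of these, Gm11536 and Hoxd3os1 were over the filter on low counts in 3 DMSO libraries and in 2 treated libraries each, so they were tested only with the group where they are high, and the count of 3 supports no statement on the genes inside the clusters. The antisense gene Gm11536 of the Hoxb cluster changed by −4.81 ± 0.97 (SE, adjusted p = 0.00187), on 42 counts over the DMSO libraries and 1 at 3 µM, a 35.3-fold fall with a 95% exact interval from 6.00 to 1428-fold. In the Hoxd cluster the antisense gene Hoxd3os1 measured 0.711, 0.914 and 1.35 CPM in DMSO and 0.157, 0.193 and 0 CPM at 3 µM and changed by −3.01 ± 0.78 (SE, adjusted p = 0.00746).

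Beside the clusters 31 genes are listed and 13 were tested, with 9 called higher, 1 lower and 3 not called at 3 µM, where 29.9% of all genes were called higher and 27.7% lower. Gm53, next to the Hoxb cluster, stood at 0.978, 0.914 and 0.269 CPM in DMSO, 1.52, 1.41 and 1.31 CPM at 1 µM, 2.101, 2.04 and 3.53 CPM at 1.5 µM and 5.80, 6.99 and 5.31 CPM at 3 µM. Its groups did not overlap with DMSO at any dose, and the change at 3 µM was 3.07 ± 0.43 (SE, adjusted p = 0.000210). Calcoco1, beside the Hoxc cluster, was the gene called lower, from 123, 118 and 107 CPM to 44.3, 43.1 and 42.4 CPM (−1.42 ± 0.10 SE, adjusted p = 4.51e-06). Hnrnpa1, an RNA-binding protein gene beside the same cluster, changed by 1.14 ± 0.11 (SE, adjusted p = 2.49e-05). Mtx2, a mitochondrial protein gene beside the Hoxd cluster, changed by 0.73 ± 0.14 (SE, adjusted p = 0.00153). Of the 4 genes listed beside the Hoxa cluster only Skap2 was tested, and it was not called, with a change of −0.20 and an adjusted p of 0.133. Scaled by library size alone, the genes inside and beside the clusters gave 4 higher and 5 lower calls.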
